A study of Mus musculus with 4 samples.

Results

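The H4K16ac islands of the Cyp2c window on chromosome 19 were described in liver of 1 WT and 1 MT mouse. An island is a stretch of the genome where reads of the H4K16ac ChIP library exceed those of the input library, made from the same chromatin with no antibody step. The window starts at 39 Mb and is 1.1 Mb long, in the coordinates of the deposited lists. It was chosen by position and on the island values themselves, because a strong MT island with no WT island lies in it. It held 10 of the 54604 islands of both lists, 6 in MT and 4 in WT. MT mice lack Sirt1 in the whole body (Sirt1-/-, SIRT1 KO in the labels) and WT mice are their wild type counterparts from intercrosses of heterozygous parents. Both were males, 3 months old, on a mixed 129/FVB/Black Swiss background, killed in the morning, and the antibody was a Santa Cruz one against H4K16ac. Most Sirt1-/- embryos die before birth on this background, so adult MT mice are the survivors. A further pair of mice named in the study was not analysed here. Whole liver was used, so fewer cells of a type with the mark and less of the mark per cell cannot be told apart. Each genotype was 1 mouse with 1 ChIP and 1 input library (4 libraries), so genotype and mouse cannot be told apart, no difference between genotypes has a replicate check, and no test between them was run. Intervals below are exact 95% intervals and cover counting error only.

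The submitters' processing notes name the build mm8, whereas the window had been set as the place of the cluster in mm9. No annotation of mm8 was used here. The label "Cyp2c cluster" therefore rests on position alone. Whether the window holds the whole cluster was not checked, so genes of the cluster may lie in a flank, and comparisons of the window with the flanks are of positions only. No island was assigned to a gene: values for single paralogs were not analysed here. Liver identity could not be checked on marker genes for the same reason.

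H4K16ac is a mark of open chromatin, and SIRT1 is an NAD+-dependent deacetylase that removes it. The study asked whether loss of Sirt1 goes with a change of H4K16ac at promoters. The Cyp2c genes encode cytochrome P450 enzymes of the endoplasmic reticulum. In liver they oxidize drugs, steroids and fatty acids. Cyp2c29, Cyp2c37, Cyp2c38, Cyp2c39, Cyp2c40, Cyp2c50 and Cyp2c54 act on polyunsaturated fatty acids such as arachidonic acid, Cyp2c39 also on retinoic acid, and Cyp2c70 makes the muricholic acids typical of mouse bile. The roles of Cyp2c67 and Cyp2c68 are less well described. In the RefSeq annotation of GRCm38.p6, used only for names and order, 14 coding Cyp2c genes stand in a row with no other coding gene between them. Ordered by lowest coordinate they are Cyp2c55, Cyp2c65, Cyp2c66, Cyp2c29, Cyp2c39, Cyp2c38, Cyp2c67, Cyp2c68, Cyp2c40, Cyp2c69, Cyp2c37, Cyp2c54, Cyp2c50 and Cyp2c70. The promoter of Cyp2c38 lies between the 2 annotated starts of Cyp2c39, so these genes do not simply follow each other.

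These genes are close copies of each other, and several of their promoters are too. RefSeq promoters (GRCm38.p6, 250 bases before to 50 after a start) were matched by symbol for 9 of the 10 member genes and 13 of the 14 genes of the row, with 14 promoters in all because Cyp2c39 has 2 starts. Cyp2c54 had no entry. Over the 91 pairs the median identity was 53.9%, from 45.3 to 91.1%. By identity the closest pair was Cyp2c68 and Cyp2c69 (91.1%, with 30 shared 25-base words). Cyp2c40 and Cyp2c69 had 80.9% but shared 179 such words, the most of any pair. Cyp2c40 shared 72.8% of its 25-base words with another of these promoters. The promoters were aligned over their full length, so identity also depends on where each start is annotated, and the 2 measures rank pairs differently. Between genes that are members, this identity was highest for Cyp2c37 and Cyp2c50 (86.6%, 59 shared words). Cyp2c68 and Cyp2c40, whose starts lie at different places relative to a motif given below, had 75.1% and 52 shared words. The promoters of Cyp2c37 and Cyp2c50 are shown here for their 250 bases before the start, both on the plus strand, to let their likeness be seen. Capitals mark the stretches in which every 25-base word also stands in the promoter of the other gene; the last such stretch runs on past the start.

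Cyp2c37: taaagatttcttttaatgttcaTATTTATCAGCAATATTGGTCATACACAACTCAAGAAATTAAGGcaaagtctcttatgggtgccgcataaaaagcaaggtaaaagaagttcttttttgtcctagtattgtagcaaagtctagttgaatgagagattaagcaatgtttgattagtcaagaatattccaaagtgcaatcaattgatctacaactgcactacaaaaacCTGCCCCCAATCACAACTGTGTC
Cyp2c50: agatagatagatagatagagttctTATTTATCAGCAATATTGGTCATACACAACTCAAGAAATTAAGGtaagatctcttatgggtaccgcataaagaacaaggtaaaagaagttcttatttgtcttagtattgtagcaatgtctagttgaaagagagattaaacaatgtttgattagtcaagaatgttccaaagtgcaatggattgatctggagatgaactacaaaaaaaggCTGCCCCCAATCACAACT

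Several motifs were searched on both strands of the promoters. CAAAGTCCA, a core of elements bound by HNF4A, a nuclear receptor of hepatocytes, stood in 6 of the 14 promoters, against 0.475% of all 32851 promoters of the table. Since the 6 genes are copies of one family, these matches are not independent. It was found in the members Cyp2c67, Cyp2c68, Cyp2c40 and Cyp2c70 and in Cyp2c65 and Cyp2c69. The stretches of the members are given on the strand of the gene, which is the minus strand in each, with the motif in capitals. Counted from the annotated start, its first base is at -125 in Cyp2c67, -77 in Cyp2c68, -45 in Cyp2c40 and -64 in Cyp2c70.

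Cyp2c67: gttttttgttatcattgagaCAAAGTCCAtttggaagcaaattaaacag
Cyp2c68: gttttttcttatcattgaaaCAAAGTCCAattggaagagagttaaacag
Cyp2c40: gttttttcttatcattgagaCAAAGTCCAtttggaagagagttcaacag
Cyp2c70: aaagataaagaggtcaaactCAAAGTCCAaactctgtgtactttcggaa

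The stretches of Cyp2c67, Cyp2c68 and Cyp2c40 are nearly alike around the motif, and that of Cyp2c70 is not. TATAAA, the core of the TATA box, stood anywhere in the promoter sequence in 10 of the 14 promoters (13.6% of all promoters), again copies of one family. On the strand of the gene its first base was at -29 in Cyp2c55, -31 in Cyp2c38, -40 in Cyp2c67 and -19 in Cyp2c29, and farther off or past the annotated start in others, such as -162 in Cyp2c65, -150 in Cyp2c66, and 10 and 40 bases past it in Cyp2c69 and Cyp2c40. These places depend on the annotated start. CAAAGTCCA began at -125 in Cyp2c67, -75 in Cyp2c69 and -45 in Cyp2c40, and TATAAA followed at the same distance in each. In Cyp2c70 it was on the other strand only. At Cyp2c39 start 2 it began at -3. AGGTCA, the core repeat bound by many nuclear receptors, stood in 3 promoters (16.3%). CACGTG, the E-box bound by the clock factors, TTGCGCAA, a C/EBP site, and TTCNNNGAA, a STAT site, were in none of these windows (7.15, 0.183 and 8.30% of all promoters). The deposited islands were not tied to any of these promoters.

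The lists held 2916128 ChIP and 1347113 input reads in islands in MT and 2264125 and 984817 in WT. Total reads per library were not analysed here. The libraries were compared through the input density of regions with islands in both lists, which gave an MT ChIP library 1.05 times and an MT input library 1.09 times the size of those of WT. The fold over input, as the authors give it, divides the ChIP reads of an island by its input reads times a constant for the size of the libraries.

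The window was sparse in islands in both genotypes, while the ground on either side was dense. The 6 MT islands covered 13.4 kb, or 1.22% of the window, and the 4 WT islands covered 7.40 kb, or 0.673%. In MT the window held 5.45 islands per Mb, against 20 in the 1 Mb before it and 45 in the 1 Mb after it. In WT the values were 3.64, 26 and 29. Both genotypes thus had fewer islands in the window than in either flank, and the counting intervals of the window and the flanks did not overlap after scaling to 1 Mb. Against tiles of 1.1 Mb over the genome (2303 tiles), the window was not extreme: a tile held a median of 8 islands in each list, with quartiles of 1 and 20 in MT and of 1 and 18 in WT.

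**Figure D1:**
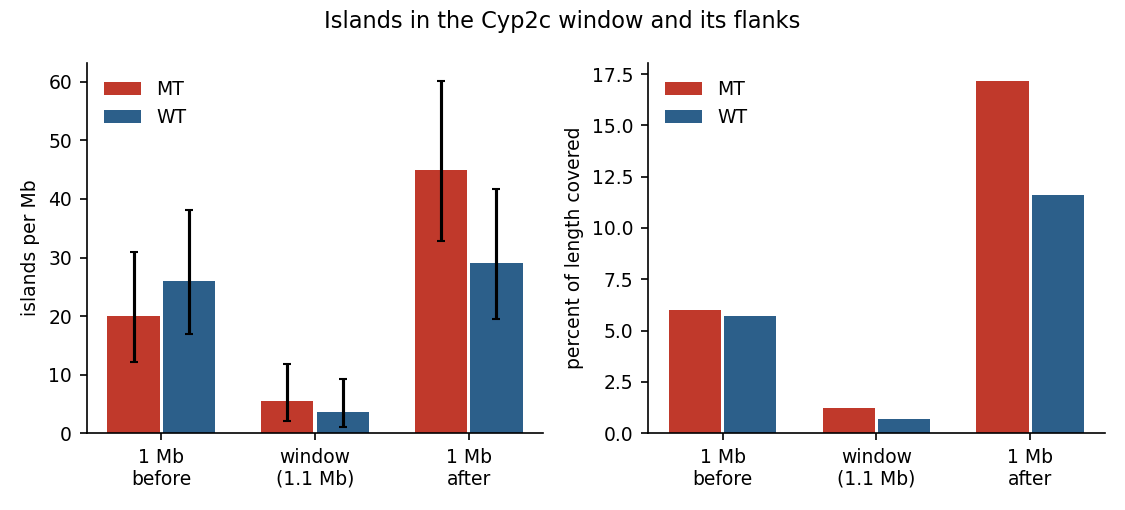
Islands per Mb (left) and percent of length covered by islands (right) in the window and in the 1 Mb on each side, for the MT and the WT list. Error bars are exact 95% Poisson intervals of the island count; the window stands lowest in both lists, at 5.45 and 3.64 islands per Mb.

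Long stretches held no island at all. The longest in the MT list was 339.2 kb, from 39703001 to 40042200, and it was free of islands in both lists. The WT list had no island over the last 583.8 kb of the window, from 39516201 on. At the edges, the nearest island before the window was a WT island from 38978401 to 38981200 (54 ChIP and 27 input reads), and the first inside it was a WT island from 39062801. The last inside it was an MT island ending at 40046200. The nearest one after it was an MT island from 40141201 to 40144000, again with no WT island (84 ChIP and 17 input reads, fold 4.68).

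The islands of the 2 genotypes met at only 2 places. Only 2 of 6 islands in the MT list (33.3%, interval 4.33 to 77.7%) touched one in WT. In the WT list 2 of 4 (50%, 6.76 to 93.2%) touched one in MT. The other 4 MT islands had no WT island, in a list where this holds for 43.5% of all islands, and the other 2 WT islands had no MT island, against 35.7% of all. The rule used such an island, so nothing is read from these counts. The ratio of MT to WT islands was 1.5, with an interval of 0.356 to 7.23 that includes 1. The ratio of covered length was 1.81 in the window and 1.25 over all islands. The MT count and length include the island on which the window was chosen, so nothing is read from either ratio.

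**Figure D2:**
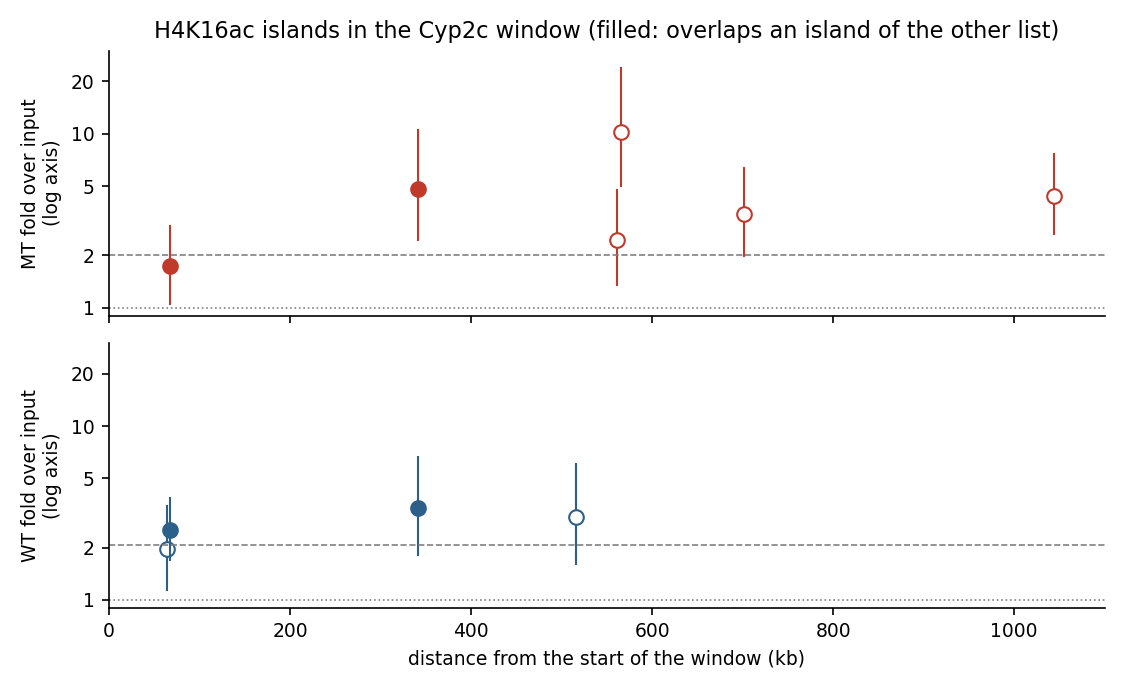
Fold over input of each island (log axis) against its distance in kb from the start of the window, MT above and WT below. Filled points overlap an island of the other list; vertical lines are exact 95% intervals for counting error; the dashed line is the median fold of the list (2.02 in MT, 2.08 in WT) and the dotted line is 1. All 4 WT islands lie in the first part of the window, and the highest MT point is the island of fold 10.2.

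Near the start of the window the called island was longer in WT. The MT island from 39067001 to 39068400 lay inside the WT island from 39065801 to 39068600. It held 44 ChIP and 24 input reads over 1400 bp, and the WT island held 89 ChIP and 32 input reads over 2800 bp. ChIP reads per covered kb were nearly the same, 31.4 in MT and 31.8 in WT, and the log2 of MT over WT density after scaling was -0.082 (-0.64 to 0.45). The log2 ratio of the reads themselves was -1.08 (-1.64 to -0.55), which follows the lengths of the islands, since MT reads outside the shorter MT island were not in the files, and is not read as a lower level in MT. A further WT island lay 1600 bp before the longer WT one, from 39062801 to 39064200, with 43 ChIP and 20 input reads and a fold of 1.95. MT had no island there.

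The second shared place began at 39340401 in both lists. The MT island ended at 39341600 and held 51 ChIP and 10 input reads, and the WT island ended at 39342000 and held 48 and 13. The density was 42.5 ChIP reads per kb in MT and 30 in WT, with a log2 ratio of 0.44 (-0.16 to 1.04), while the reads themselves were equal within counting error (log2 0.022, -0.58 to 0.62). The islands differed in length, 1200 against 1600 bp. Their folds were 4.83 (2.42 to 10.7) in MT and 3.36 (1.79 to 6.75) in WT, above the median of each list.

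Neither shared region passed a 1.5-fold change of ChIP density in either direction. Over the 14719 shared regions of the genome 2.89% passed it with a higher density in MT and 4.05% with a lower one, around a median log2 ratio of -0.011. With the scaled input subtracted, both regions passed 1.5-fold, in opposite directions. The log2 ratios were then -0.59 at the first and 0.61 at the second, each within the counting interval given above. The share of all shared regions past 1.5-fold in that setting was not analysed. The log2 ratio of input density was 0.46 (-0.37 to 1.27) at the first place and -0.088 (-1.44 to 1.22) at the second, within counting error of 0 at both.

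In the middle of the window each genotype had islands of its own. WT had 1 island from 39514601 to 39516200, with 43 ChIP and 13 input reads and a fold of 3.01 (1.59 to 6.09). MT had a pair of islands 1600 bp apart, more than 44 kb further on. The first, from 39560601 to 39562000, held 39 ChIP and 15 input reads, a fold of 2.46 (1.33 to 4.81). The second, from 39563601 to 39566600, is the island that the rule names. It held 86 ChIP reads, the most of any MT island in the window, and 8 input reads over 3000 bp. Its fold was 10.2 (4.94 to 24.3), and 21 of the 28377 MT islands had a fold at least as high, this one included. Of the 21, 6 had no WT island, where 43.5% of all MT islands had none. The 6 include this island, which was chosen for lacking a WT island, so nothing is read from that count.

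Farther on MT had 2 more islands, both without a WT island. The island from 39700601 to 39703000 held 58 ChIP and 16 input reads (fold 3.43, 1.95 to 6.40). The island from 40042201 to 40046200, the longest of the window at 4000 bp, held 83 ChIP and 18 input reads (fold 4.37, 2.60 to 7.72).

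Of the 4 MT islands with a fold above 3, those from 39563601, 39700601 and 40042201 had low input and a ChIP density under the median of the list. At the MT island from 39563601 the ChIP density was 28.7 reads per kb, under the MT median of 31.6, and the input density was 2.67 reads per kb (1.15 to 5.25), against an MT median of 15.0. Only 0.0282% of MT islands had an input density that low. At the island from 40042201 the values were 20.8 ChIP and 4.50 input reads per kb, and at the island from 39700601 they were 24.2 and 6.67. Of all MT islands, 0.814 and 8.19% had a ChIP density no higher than these. The fourth, at the shared place from 39340401, had the second highest fold of the window (4.83) with both a low input, 8.33 reads per kb, and the highest ChIP density, 42.5 reads per kb.

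Input was low in WT as well where WT had islands beyond the start of the window. It was 8.13 reads per kb at the WT islands from 39340401 and from 39514601, against a WT median of 13.6, while the first 2 WT islands had 14.3 and 11.4. Over all islands of the window the input density was 6.79 reads per covered kb in MT and 10.5 in WT. The MT value includes the island on which the window was chosen, and the lists mostly cover different places, so these 2 values are not compared. At the 2 shared places input was 17.1 and 8.33 reads per kb in MT and 11.4 and 8.13 in WT. In the flanks the input density was 13.9 and 16.6 in MT and 12.6 and 15.5 in WT.

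**Figure D3:**
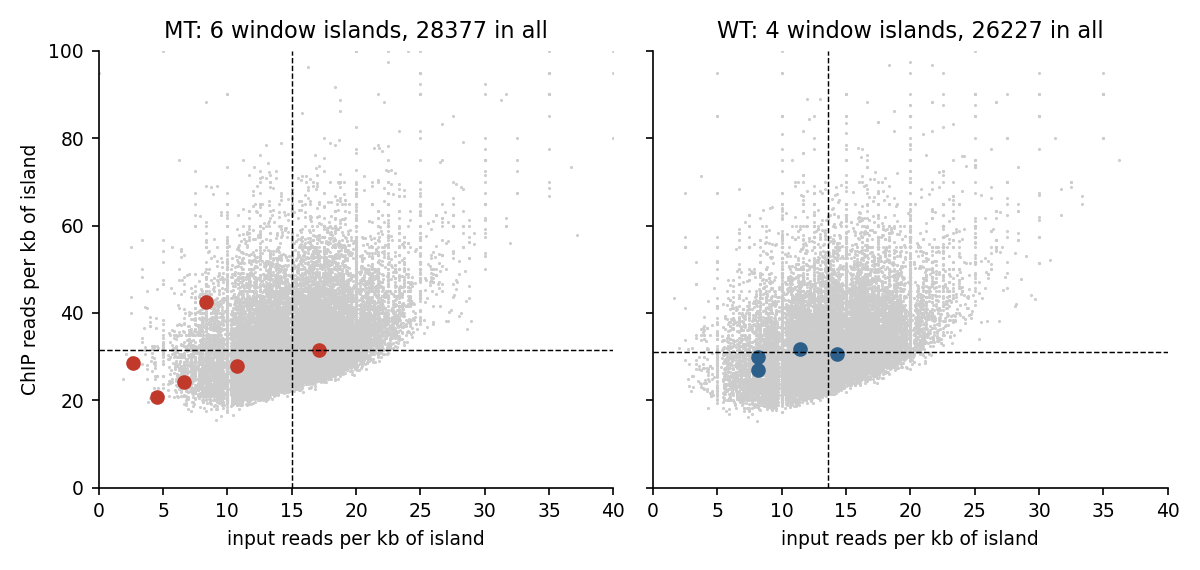
ChIP against input reads per kb of island for all islands of the MT (left) and WT (right) list in grey, with the window's islands in colour; dashed lines are the medians of the list, and a few islands lie past the axes. In MT 5 of 6 window islands lie left of the median input of 15.0 and all except 1 lie below the median ChIP density of 31.6; in WT 3 of 4 lie left of 13.6.

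The fold was therefore also taken with the input at the median density of the list, a setting chosen after seeing the data. The MT island from 39563601 then had a fold of 1.81 in place of 10.2, that from 39700601 had 1.53 in place of 3.43, and that from 40042201 had 1.31 in place of 4.37. The island shared with WT from 39340401 was the highest in MT, at 2.68, and its WT counterpart stood at 2.01. With 1 input density for all islands, these folds restate the ChIP densities given above on the scale of the fold and are no separate evidence.

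The reads of one genotype at an island of the other list alone were not in the files. What they could have been was bounded by the largest ChIP count that would still have failed the threshold, given the input expected from the other mouse. Each island below was taken because the other list lacks it, so a failed threshold there was known beforehand. The reads expected were scaled from the counts of the list that holds the island. The comparisons of bounds with intervals are therefore a description and support nothing. The window was also chosen on the MT island from 39563601, for being strong in MT and missing in WT. There, an equal level would have given 82.2 ChIP reads in WT (65.7 to 101), and at most 18 reads fail given its 8 input reads. At the MT islands from 39700601 and 40042201, 55.4 and 79.3 reads would be expected and at most 30 and 33 fail, both under the counting intervals. At the MT island from 39560601 the count was 28 for an expected 37.3 (26.5 to 50.9), within the interval. For the WT islands, at most 28 MT reads fail from 39514601 and 39 from 39062801, where 45.0 (32.6 to 60.6) would be expected at both; the second lies within the interval.

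These bounds hold for the input that was seen in the island. With the input of the other mouse at the median density of its list, also chosen after seeing the data, at most 67 WT reads fail at the island from 39563601, which lies within 65.7 to 101, and 56 and 86 at the islands from 39700601 and 40042201, no longer under the reads expected. With the expected input doubled, at most 30, 52, 57 and 49 WT reads fail at the MT islands from 39563601, 39700601, 40042201 and 39560601, and at most 48 and 69 MT reads at the WT islands from 39514601 and 39062801. The bounds at the islands from 39563601 and 40042201 were under their intervals, and that from 39700601 lay within its interval of 42.1 to 71.6. Those from 39560601, 39514601 and 39062801 were above the reads expected. All these islands were taken for their absence from the other list, so these comparisons too are a description and support nothing. The input of WT at these places was not in the files, and its part in the missing WT islands was not tested.

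**Figure D4:**
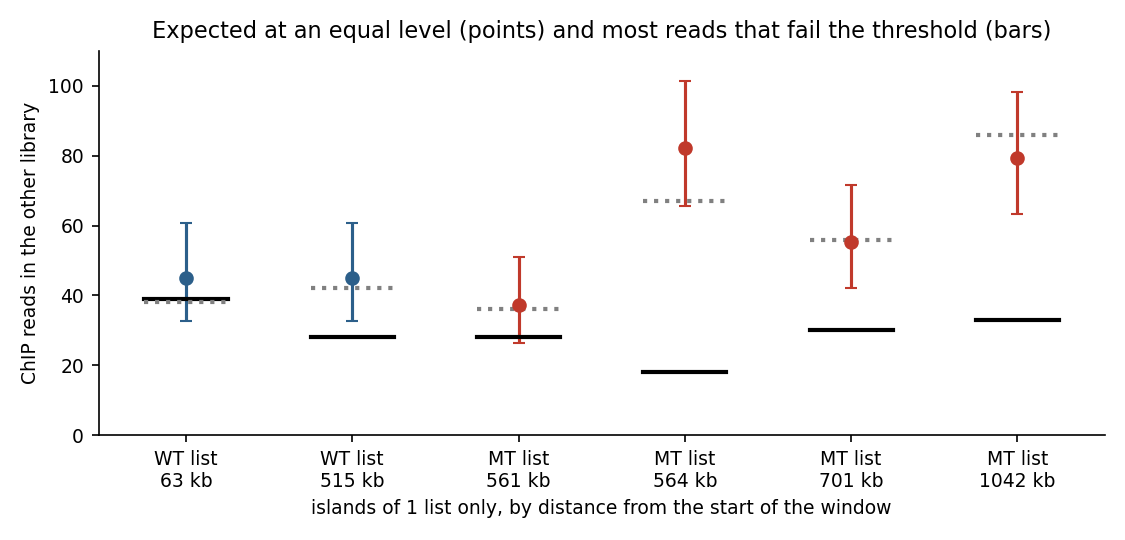
ChIP reads that an equal H4K16ac level would give in the other library (points, with exact 95% Poisson intervals) at the 6 islands of 1 list only, by list and distance from the start of the window, with the most reads that fail the threshold at the expected input (black bars) and at the median input density of the other list (dotted bars). The black bar lies under the interval at 4 islands and the dotted bar at none. All 6 islands were taken for standing in 1 list only, and the window was chosen on 1 of them, so this tally is a description and supports nothing.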

How the data were processed

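H4K16ac ChIP-Seq of liver from 1 WT and 1 MT mouse at 3 months was used, 1 ChIP and 1 input library each. Per the labels and list titles, the authors removed duplicate reads, joined 200 bp windows over gaps of up to 400 bp and kept islands at a false discovery rate of 0.001. The submitters' processing notes name Bowtie 0.12.7, SICER 1.03 and mm8, without their roles. The authors deposited, per island, counts of ChIP and input reads, a p-value with its false discovery rate, and the fold, a ratio of ChIP to input scaled for library size. The lists have no header. The columns were checked: the p-value equals the Poisson probability of more ChIP reads than seen given the scaled input.

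Islands overlapping the window by at least 1 bp were taken, and overlapping islands of the lists were joined into shared regions. The relative size of the libraries came from the input density in shared regions and the constant in the fold. Ratios have exact conditional binomial intervals, shares Clopper-Pearson and counts Poisson intervals, all at 95% and for counting error only, since reads are not independent molecules. Bounds used the largest p-value kept in the other list and assume that a candidate island forms. Promoters were aligned globally. The tools were matplotlib 3.10.9, scipy 1.17.1, pandas 2.3.3 and numpy 2.4.6 under Python 3.11.15, and the steps were tested on simulated data. Window, members and lists were chosen with earlier results of these data known. Every island of the window is named, by a rule to name all where there are 30 or fewer. Alternatives were other thresholds, window edges, flanks, overlaps, scalings and inputs.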

Additional observations from a re-analysis of the deposited data

How the results depend on the processing

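With 1 library per genotype, no library could be left out, and counts of 4 and 6 islands limit every statement about the window. Of 81 values recomputed, 62 stayed within 1.5 times the reported count, length or ratio, or within its counting interval or on the same side of the reads expected, and 19 moved. For these, the cause was not tested, but smaller windows and stricter thresholds hold fewer islands by construction. With at least 50 ChIP reads, 1 WT island covering 2.8 kb was left. With the edges 100 kb inwards, 2 WT islands were left, covering 3.2 kb, and the MT islands covered 8 kb. With the edges 100 kb outwards the WT islands covered 11.8 kb. With the end alone 50 kb outwards, a setting chosen after seeing the data, MT held 7 islands and WT 4. Counted as reads per region, the first shared region had a log2 ratio of -1.08 for ChIP and -0.54 for input, where the longer WT island holds more of both. With the scaled input subtracted, both shared regions passed 1.5-fold, at -0.59 and 0.61. Both are among the 62 that stayed, since they lay within their counting intervals. At a fold of at least 2 the first shared region was lost, as its MT island fell below the threshold, and gave no value. The window over flank ratio of islands per Mb was 0.168 in MT and 0.132 in WT. With flanks of 0.5 Mb it was 0.109 in MT, and the ratio of covered length was 0.0669 in MT and 0.0512 in WT, against 0.105 and 0.0777. No setting brought a ratio to 1.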

Other observations

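The islands of the flanks are given by their values, with no test against the few islands of the window. After the window, the MT islands had a median fold of 2.11 and a median input density of 15.9 reads per kb, and the WT islands 2.08 and 14.5, near the medians of the whole lists. The overlap between the genotypes was 55.6% of the MT islands and 86.2% of the WT islands after the window, and 75% and 69.2% before it. Folds of at least 4 were held by 3 of 6 MT islands in the window, 1 of 45 after it and 0 of 20 before it, against 3.21% of all MT islands. The 3 include the island from 39563601, on which the window was chosen, so nothing is read from that count. In WT they were held by 0 of 4 islands in the window, 1 of 29 after it and 3 of 26 before it, against 4.08% of all WT islands. The WT island with the highest fold near the window was 400 bp long, from 40402001 to 40402400, and held 22 ChIP reads and 1 input read, a fold of 20. It overlapped an MT island, which was 3000 bp long, with a fold of 2.28.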
